A study of Homo sapiens with 6 samples.

Results

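The genes described here are 36 genes of protein folding in the endoplasmic reticulum (ER) and of the unfolded protein response, chosen by name as ER chaperones, oxidoreductases, degradation factors, translocon subunits and stress sensors. The list was drawn up with earlier results of these data known. All 36 genes were found by Ensembl identifier among the 28495 genes of the deposited table. They were compared between NCI-H1299 cells silenced for complement factor B (sh-CFB, 3 libraries) and control cells (sh-NC, 3 libraries). NCI-H1299 is an established human lung cancer line, labelled as lung adenocarcinoma and known to lack p53, and no other treatment is named for either group. Titles say shCFB and column names CFBsi, so whether a hairpin or a short interfering RNA was used is unclear. As the origin of the 3 replicates of a group is not labelled, p-values here reflect the scatter between libraries, which may be technical.

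Secreted and membrane proteins enter the ER through the Sec61 translocon and fold there with the help of chaperones, sugar-binding lectins and enzymes that form disulfide bonds. Proteins that fail to fold are passed back to the cytosol and destroyed, a route called ER-associated degradation. When unfolded proteins build up, the membrane sensors IRE1 (ERN1), PERK (EIF2AK3) and ATF6 start the unfolded protein response: IRE1 splices the mRNA of the transcription factor XBP1, PERK slows translation and ATF6 is cut to release a transcription factor. XBP1 and ATF6 bind ER stress response elements and raise chaperones and degradation factors. Gene-level values hold neither the splicing of XBP1 nor the phosphorylation or cleavage of the sensors.

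The promoters of 5 members that fell in sh-CFB are shown because they carry those elements or, in VCP, a related one. Each is the 250 bases before the RefSeq start site (GRCh38.p14), read 5′ to 3′ on the gene's strand, with the matched elements in capitals.
HSPA5 (chr9:125241344-125241593, strand -): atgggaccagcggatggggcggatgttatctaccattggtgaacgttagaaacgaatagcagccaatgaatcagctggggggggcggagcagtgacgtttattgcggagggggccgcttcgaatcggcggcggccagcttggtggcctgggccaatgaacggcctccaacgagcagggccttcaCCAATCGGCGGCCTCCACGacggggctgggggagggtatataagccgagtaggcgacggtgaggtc
XBP1 (chr22:28800570-28800819, strand -): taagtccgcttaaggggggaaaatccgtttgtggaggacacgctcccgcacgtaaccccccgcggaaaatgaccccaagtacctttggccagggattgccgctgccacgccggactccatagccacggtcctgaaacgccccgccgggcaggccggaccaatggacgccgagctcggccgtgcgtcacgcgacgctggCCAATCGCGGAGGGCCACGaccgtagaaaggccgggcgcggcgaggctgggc
HYOU1 (chr11:119057206-119057455, strand -): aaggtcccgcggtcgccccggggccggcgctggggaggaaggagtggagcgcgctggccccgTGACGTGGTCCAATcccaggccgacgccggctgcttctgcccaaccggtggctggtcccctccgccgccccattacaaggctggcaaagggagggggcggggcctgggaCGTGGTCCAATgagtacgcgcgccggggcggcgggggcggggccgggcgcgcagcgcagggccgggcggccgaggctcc
HERPUD1 (chr16:56931892-56932141, strand +): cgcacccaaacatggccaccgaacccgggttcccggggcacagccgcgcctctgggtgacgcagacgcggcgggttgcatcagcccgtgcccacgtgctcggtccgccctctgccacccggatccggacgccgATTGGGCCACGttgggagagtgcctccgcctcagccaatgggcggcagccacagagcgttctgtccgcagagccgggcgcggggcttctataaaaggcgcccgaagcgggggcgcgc
VCP (chr9:35072626-35072875, strand -): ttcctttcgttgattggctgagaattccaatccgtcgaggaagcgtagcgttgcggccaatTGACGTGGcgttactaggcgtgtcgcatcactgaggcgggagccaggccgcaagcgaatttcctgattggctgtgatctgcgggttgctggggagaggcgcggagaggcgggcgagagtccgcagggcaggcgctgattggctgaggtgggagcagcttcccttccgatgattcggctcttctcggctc
The capitals mark the ER stress response element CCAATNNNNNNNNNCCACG in HSPA5 and XBP1, and the second form (ATTGG, any 1 base, then CCACG), read on either strand, in HYOU1 (2 copies) and HERPUD1. They also mark TGACGTGG, the core of the unfolded protein response element, in VCP and in HYOU1, where it overlaps the distal copy of the second form.

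These letters were rare in promoters at large. In windows from 250 bases before to 50 after the start site, searched on both strands, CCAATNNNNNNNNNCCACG was found in 7 of the 33 members with a RefSeq window (21.2%) and in 0.0769% of all 35116 promoters. The 7 were XBP1, HSPA5, HSP90B1 (2 copies), CRELD2, CALR, CANX and ERO1B. The second form was found in 3 of the 33 (9.09%; HYOU1, SDF2L1 and HERPUD1) and in 0.0541% of all promoters. TGACGTGG was found in 3 of the 33 (9.09%; HYOU1, DNAJC10 and VCP) and in 0.729% of all promoters. In the 9026 promoters of tested genes the shares were 0.144%, 0.111% and 0.931%, in the same order. Since the members were chosen as known genes of this response, their shares describe the list and were not tested. Among 100 promoters of the neighbouring ER genes described below, the core of the unfolded protein response element was found in 6 (6%). That element was thus not particular to the members. The ER stress response element was found in 1 of the 100 (1%) and its second form in 0. The shares of the neighbouring genes were not tested either.

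At the level of the whole table, 12466 genes had a mean of at least 0.5 FPKM (fragments scaled by the length of the gene and the size of the library) and were tested with limma on log2(FPKM + 0.5), with Benjamini-Hochberg adjustment. Recovered depth ran from 26.2 to 40.0 M reads (M, mega). CFB itself held 0, 0 and 2 reads in the sh-CFB libraries and 1, 6 and 5 in the sh-NC libraries, so the silencing could not be checked library by library. Over all tested genes the median log2 change was -0.15, and median-of-ratios scaling moved it to 0.02, so some changes are also given relative to that median. The libraries also differed along an axis tied to GC content. Across tested genes, Spearman's rho between a library's deviation from the gene mean and GC content was 0.60, -0.10 and -0.16 in sh-CFB replicates 1, 2 and 3 and -0.55, -0.25 and 0.23 in sh-NC replicates 1, 2 and 3. Of the lung lineage markers, NKX2-1 and NAPSA stayed under 0.35 FPKM in every library and SFTPB, SFTPC and SFTPD at or near 0, while KRT7 ran from 1.21 to 1.79 FPKM. CDH1 and EPCAM were also near 0 and KRT19 stayed at or under 0.218 FPKM, while KRT8, KRT18 and VIM were abundant. The other mesenchymal and fibroblast markers in the table were low. FN1 and CDH2 ran from 1.05 to 2.85 FPKM, COL1A1 stayed at or under 0.275 FPKM, and COL1A2, DCN and PDGFRA were at or near 0. The summed level of the 3 immune markers in the table (PTPRC, CD14 and LYZ) stayed at or under 0.0758 FPKM in every library.

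Of the 36 members, 33 passed the filter; 11 of these fell in sh-CFB, 0 rose and 22 did not pass the test. The background was 5.71% of all tested genes lower and 1.74% higher, 7.45% in all. The members were chosen with earlier results of these data known, so their shares beside all tested genes are descriptions. The 11 were the chaperones HSPA5 and HYOU1, the oxidoreductases PDIA3, PDIA4 and PDIA6, the translocon subunits SEC61A1 and SEC61B, the degradation factors HERPUD1 and VCP, the secreted factor MANF and the transcription factor XBP1. Their log2 changes ran from -1.14 to -0.43, or 2.21-fold to 1.35-fold lower. In 19 of the 33 members every sh-CFB library lay below every sh-NC library and in 0 every one lay above, against 23.6% and 10% of all tested genes. The median log2 change of the 33 was -0.41, which is -0.27 from the all-gene median, and 32 of 33 were below 0, against 67.7% of all tested genes. Summed over the 36 members, the level was 919, 936 and 907 FPKM in sh-CFB replicates 1, 2 and 3 and 1526, 1396 and 1220 in sh-NC replicates 1, 2 and 3. The sum in sh-CFB was 0.667 of that in sh-NC. As these are bulk samples, a lower level in each cell and fewer cells that express a gene cannot be told apart.

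The call count depended on scaling and on single libraries. With median-of-ratios factors limma called 0 members and 0 of the neighbouring ER genes described below. In that setting 0.722% of all tested genes were called lower and 1.07% in either direction. An unadjusted p under 0.05 was held by 12 members, all lower. The share of all genes at that unadjusted level is not given here, so this and later unadjusted counts lack a background. With voom on recovered reads 9 members were called lower (4.26% of all genes). With voom and median-of-ratios factors 3 were (HERPUD1, HYOU1 and VCP, 1.53% of all genes). Without sh-NC replicate 2 the count was 0, with 16 members at an unadjusted p under 0.05, and 0.112% of all genes were called lower. Without sh-CFB replicate 2 it was 1 (VCP), beside 0.265% of all genes. When sh-CFB replicate 3 was left out 7 were called (2.7% of all genes), and 5 when sh-NC replicate 1 was (1.71%). After correction of each library for GC content and gene length 9 members fell, 8 of them among the 11, against 6.58% of all genes lower and 4.3% higher. Without both replicate 1 libraries, the ends of the GC axis, 9 fell, again 8 of them among the 11, against 4.25% of all genes lower, 1.36% higher and 5.61% in all.

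**Figure D1:**
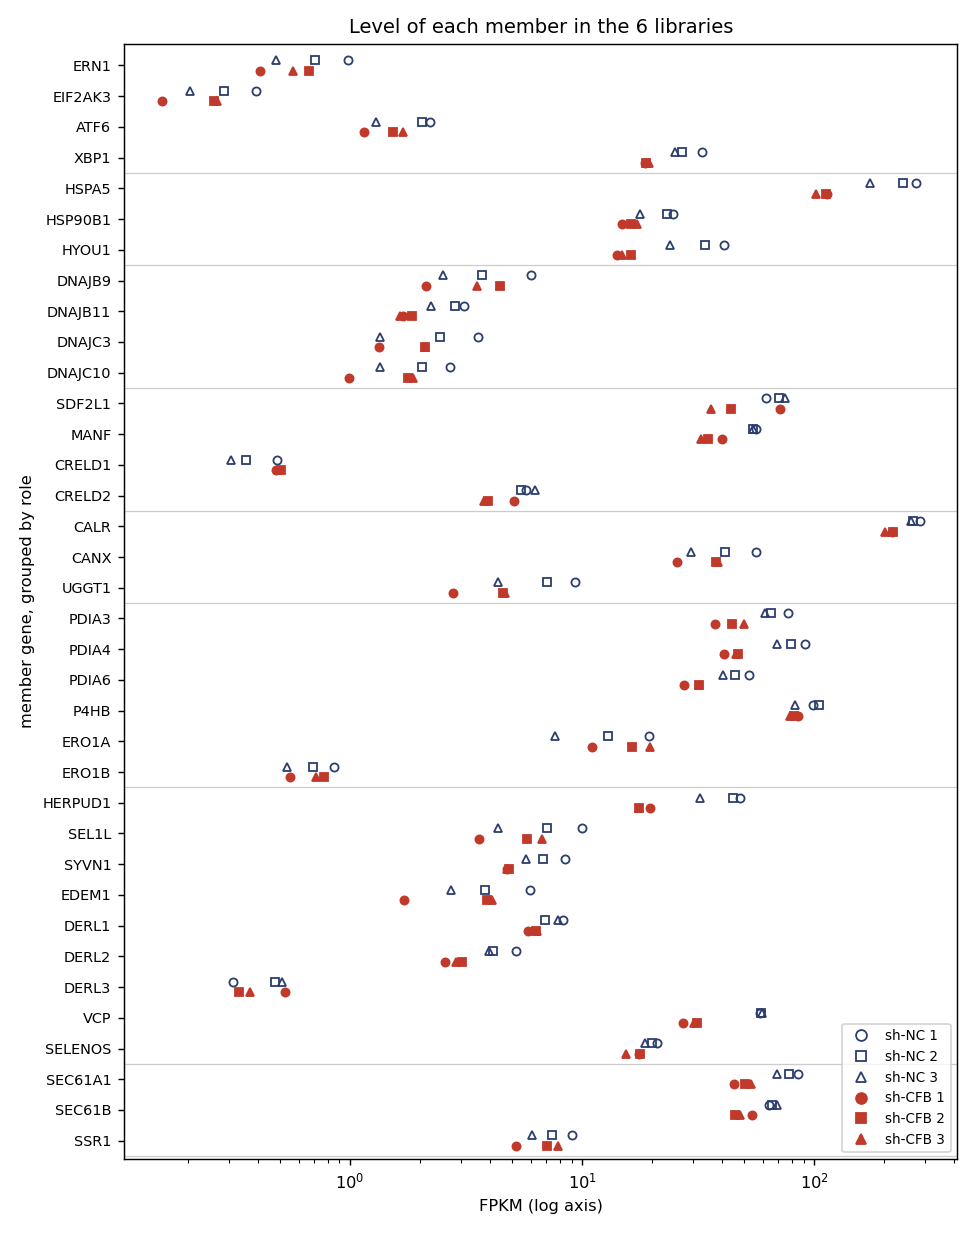
FPKM of each of the 36 members in the 6 libraries, on a log axis, grouped by role from sensors at the top to the translocon at the bottom; open blue symbols are sh-NC, filled red symbols sh-CFB, and the shape gives the replicate. The members reach from 0.155 FPKM (EIF2AK3, sh-CFB replicate 1) to 284 FPKM (CALR, sh-NC replicate 1), and in HSPA5, HYOU1, HERPUD1 and VCP the red symbols lie clear of the blue ones.

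Among the sensors, the mRNA of XBP1 fell and those of the membrane sensors were low in deposited FPKM and held no call. XBP1 (ENSG00000100219, chromosome 22 from 28794555 to 28800597, reverse strand) stood at 18.6, 18.9 and 19.4 FPKM in sh-CFB, against 32.7, 26.9 and 25.0 in sh-NC. The sh-CFB libraries lay close together and below every control, which spread more widely. Its log2 change was -0.55 (SE 0.12, adjusted p = 0.0341 with limma), and -0.41 from the all-gene median. Corrected for GC content and length it stood at -0.31 (adjusted p = 0.123), with the groups still apart. ATF6, the sensor cut in the Golgi, stood at 1.14, 1.53 and 1.68 FPKM in sh-CFB, against 2.21, 2.05 and 1.29 in sh-NC, and its groups overlapped (log2 change -0.25, SE 0.21, adjusted p = 0.501). ERN1, which encodes IRE1, had 0.408, 0.663 and 0.565 FPKM against 0.978, 0.710 and 0.482 and also overlapped (-0.21, SE 0.20, adjusted p = 0.555). EIF2AK3, which encodes PERK, lay below the filter, with 84, 180 and 212 reads in sh-CFB, against 321, 237 and 140 in sh-NC. Its FPKM of 0.155, 0.261 and 0.267 against 0.393, 0.286 and 0.205 gave a two-sided exact permutation p of 0.4, where 0.1 is the smallest that 3 libraries against 3 allow. In ATF6, ERN1 and EIF2AK3 the lowest sh-CFB value was in replicate 1 and the highest sh-NC value in replicate 1, the libraries at the ends of the GC axis. Corrected for GC content and length, ERN1 stood at -0.0053 and ATF6 at -0.06, and without both replicate 1 libraries at 0.03 and -0.02.

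The HSP70 and HSP90 class chaperones included HSPA5 and HYOU1, which with HERPUD1 were the members called lower by more than 1 on the log2 scale. Of all tested genes, 0.578% were both called and lower by more than 1. Relative to the all-gene median the log2 changes of HSPA5, HYOU1 and HERPUD1 were -0.90, -0.92 and -0.996, so none was beyond 1 by that measure. HSPA5 encodes BiP, the ER HSP70 that binds unfolded chains and holds the sensors inactive (ENSG00000044574, chromosome 9 from 125234853 to 125241330, reverse strand). It stood at 113, 112 and 102 FPKM in sh-CFB, against 273, 242 and 174 in sh-NC. The sh-CFB mean was 109.1 ± 6.14 and the sh-NC mean 229.5 ± 50.7 (SD, n = 3). Every sh-CFB library was below every control, and the controls themselves differed, with replicate 3 the lowest. The log2 change was -1.05 (SE 0.16, adjusted p = 0.0148 with limma), 2.06-fold lower, and -0.77 (adjusted p = 0.0251) when corrected for GC content and length. HYOU1, the ER member of the HSP110 family that exchanges nucleotide on BiP (ENSG00000149428, chromosome 11 from 119044189 to 119057202, reverse strand), stood at 14.1, 16.2 and 14.8 FPKM against 40.7, 33.7 and 23.9. It showed the same order of control libraries as HSPA5 and no overlap. Its log2 change was -1.07 (SE 0.18, adjusted p = 0.0189), and -0.92 (adjusted p = 0.0127) after the correction.

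HSP90B1, the ER HSP90 known as GRP94, stood at 14.9, 16.3 and 17.3 FPKM in sh-CFB, against 24.5, 23.3 and 17.8 in sh-NC. The groups did not overlap, but sh-NC replicate 3 lay just above the sh-CFB libraries and the gene did not pass (log2 change -0.41, SE 0.14, adjusted p = 0.115). Its FPKM rests on a gene length of 13092 bases recovered from the table, against 4695 exon bases in GENCODE 29. At the annotated length the sh-NC mean would be 61.0 FPKM in place of 21.9. The choice of length shifts the level of a gene in all libraries alike and acts on the comparison of groups through the pseudocount and the filter. At the annotated length EIF2AK3 would stand at means of 0.866 FPKM in sh-CFB and 1.12 in sh-NC, and CRELD1 at 1.21 and 0.941, so both would have passed the filter and been tested. HSPA5 (6530 against 3908 bases), VCP (10042 against 5438), CANX (13764 against 6235), P4HB (11132 against 5303) and EIF2AK3 (20691 against 5434) were affected in the same way. So were ERN1 (19153 against 10864), ATF6 (14263 against 7890), DNAJB11 (9385 against 5731) and CRELD1 (9266 against 3778). At the annotated length the sh-NC means of ATF6 and ERN1 would be 3.34 and 1.27 FPKM. The order of levels between members is therefore approximate.

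The J proteins, which deliver clients to BiP and start its ATP cycle, did not pass the test. Their log2 changes were -0.22 in DNAJB9, -0.52 in DNAJB11, -0.27 in DNAJC3 and -0.30 in DNAJC10, with adjusted p from 0.0963 to 0.712. DNAJB11, which feeds unfolded chains to BiP, stood at 1.69, 1.85 and 1.65 FPKM in sh-CFB, against 3.09, 2.85 and 2.23 in sh-NC, without overlap. DNAJB9, also called ERdj4, which restrains IRE1 through BiP, overlapped widely, with 2.12, 4.44 and 3.53 FPKM against 6.03, 3.70 and 2.52. DNAJC3, also called p58IPK, and DNAJC10, a J protein that reduces disulfides, had the same pattern as DNAJB9, lowest within sh-CFB in replicate 1 and highest within sh-NC in replicate 1. Without both replicate 1 libraries the log2 changes of these 3 were above 0, at 0.32, 0.16 and 0.11, and did not pass.

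Of the small luminal and secreted factors, MANF fell. MANF is a stress-induced factor that binds BiP and is also secreted (ENSG00000145050, chromosome 3 from 51385047 to 51389397, forward strand). It stood at 39.8, 34.8 and 32.4 FPKM in sh-CFB, against 56.0, 54.4 and 54.3 in sh-NC. The control libraries nearly coincided and lay above all sh-CFB libraries. The log2 change was -0.62 (SE 0.10, adjusted p = 0.0161 with limma), and -0.44 (adjusted p = 0.0474) when corrected for GC content and length. SDF2L1, a partner of the J protein DNAJB11, stood at 71.1, 43.7 and 35.7 FPKM against 61.8, 70.4 and 74.6. Here sh-CFB replicate 1 was at the level of the controls and the other two sh-CFB libraries were lower, so the gene did not pass (-0.51, SE 0.23, adjusted p = 0.212). SDF2L1 has the highest GC content of the tested members (65.5%), and after the correction its groups no longer overlapped, at -0.75 (adjusted p = 0.0258). CRELD2, a secreted factor with disulfide-reducing activity, had 5.06, 3.94 and 3.78 FPKM against 5.70, 5.48 and 6.26 (-0.41, adjusted p = 0.129). CRELD1, its membrane-bound relative, lay below the filter with 0.481, 0.504 and 0.492 FPKM against 0.487, 0.356 and 0.308, overlapping (two-sided exact permutation p of 0.2).

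The lectin cycle, in which calnexin and calreticulin hold glycoproteins by their trimmed sugars and UGGT1 re-marks those still unfolded, held no call. CALR had the highest deposited FPKM of the members over both groups, though at annotated lengths HSPA5 would lead in sh-NC (384 against 278 FPKM). CALR stood at 215, 219 and 202 FPKM in sh-CFB, against 284, 265 and 260 in sh-NC. Its groups were apart by more than the spread within either, but the change was small, and it did not pass (-0.34, SE 0.09, adjusted p = 0.0614). CANX had 25.6, 37.7 and 38.4 FPKM against 56.2, 41.2 and 29.4 (-0.29, adjusted p = 0.506), and UGGT1 had 2.77, 4.57 and 4.67 against 9.30, 7.07 and 4.34 (-0.69, adjusted p = 0.180). In both, sh-NC replicate 3 lay within the sh-CFB range.

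Among the oxidoreductases, 3 protein disulfide isomerases fell and the enzymes that supply them with oxidizing power did not pass. PDIA4, an isomerase of the BiP complex also called ERp72 (ENSG00000155660, chromosome 7 from 149003062 to 149028641, reverse strand), stood at 40.9, 46.9 and 46.0 FPKM in sh-CFB, against 90.8, 79.3 and 68.9 in sh-NC. The groups lay clear of each other. Its log2 change was -0.82 (SE 0.12, adjusted p = 0.0135 with limma) and -0.66 (adjusted p = 0.0160) when corrected for GC content and length. PDIA3, the isomerase that works with calnexin and calreticulin (ENSG00000167004, chromosome 15 from 43746392 to 43773279, forward strand), had 37.5, 44.2 and 49.6 FPKM against 77.1, 65.3 and 61.1 (-0.63, SE 0.14, adjusted p = 0.0356). PDIA6, which binds BiP and IRE1 (ENSG00000143870, chromosome 2 from 10783391 to 10837977, reverse strand), had 27.6, 31.8 and 31.9 against 52.1, 45.5 and 40.5 (-0.59, SE 0.12, adjusted p = 0.0312). In both the groups were apart; after the correction PDIA3 kept its call (-0.35, adjusted p = 0.0265) and PDIA6 did not (-0.30, adjusted p = 0.0569).

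Genes on the other strand overlap 33.2% of the exon bases of PDIA3 and 25.2% of those of PDIA6 in GENCODE 29, and the strand setting of the counting is not given in the sources used here. The processed pseudogene PDIA3P1 had 2.66, 2.67 and 3.19 FPKM against 5.54, 3.87 and 3.68, and reads shared with PDIA3 cannot be told apart. P4HB, the founding isomerase of the family, stood at 85.4, 82.1 and 78.7 FPKM in sh-CFB, against 99.1, 105.2 and 82.9 in sh-NC, where sh-NC replicate 3 lay within the sh-CFB range (-0.21, SE 0.11, adjusted p = 0.263). ERO1A, the oxidase that recharges P4HB, was the only tested member above 0, at 0.28 (SE 0.33, adjusted p = 0.637). Its libraries ran from 11.1 to 19.5 FPKM in sh-CFB and from 7.66 to 19.4 in sh-NC, almost the same range. Corrected for GC content and length its sh-CFB libraries all lay above the controls, at 0.47 (adjusted p = 0.122), and without both replicate 1 libraries the log2 change was 0.81 (adjusted p = 0.0821). ERO1B, its paralog, had 0.553, 0.771 and 0.715 FPKM against 0.854, 0.691 and 0.535 (-0.01, adjusted p = 0.973, and 0.11 with median-of-ratios factors).

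**Figure D2:**
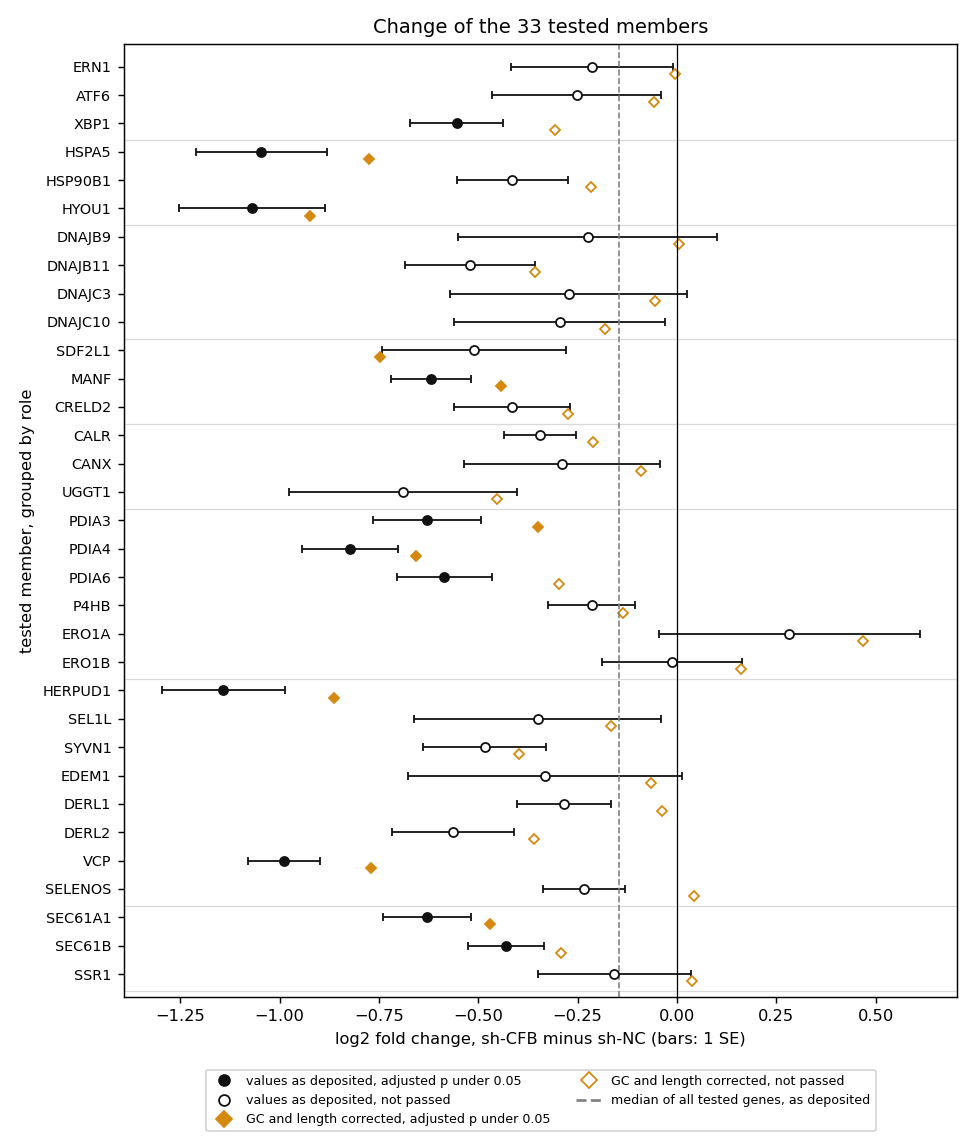
Log2 fold change, sh-CFB minus sh-NC, of the 33 tested members grouped by role; circles are values as deposited with bars of 1 SE, diamonds the values after the GC and length correction, filled where the adjusted p was under 0.05, and the dashed line is the median of all tested genes (-0.15). The filled circles are the 11 members that fell, led by HERPUD1, HYOU1, HSPA5 and VCP, and the diamonds lie nearer to 0 than the circles except in SDF2L1, ERO1A and ERO1B.

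In the degradation branch, HERPUD1 and VCP fell, while the other 6 tested genes did not pass. HERPUD1 is a membrane scaffold that gathers the ubiquitin ligase complex and is strongly induced by ER stress (ENSG00000051108, chromosome 16 from 56932048 to 56944863, forward strand). It stood at 19.7, 17.6 and 17.7 FPKM in sh-CFB, against 47.8, 44.8 and 32.1 in sh-NC. Even the lowest control was well above the highest sh-CFB library. The log2 change was -1.14 (SE 0.15, adjusted p = 0.0122 with limma), the lowest of the members, and -0.86 (adjusted p = 0.0199) when corrected for GC content and length. VCP, the ATPase p97 that pulls ubiquitinated proteins out of the ER membrane (ENSG00000165280, chromosome 9 from 35056064 to 35073249, reverse strand), stood at 27.1, 31.2 and 30.2 FPKM in sh-CFB. In sh-NC it stood at 58.6, 58.8 and 59.3, a spread of 0.346 (SD, n = 3) around 58.9. The control libraries that lay apart for HSPA5, HYOU1 and HERPUD1 thus coincided for VCP. Its log2 change was -0.99 (SE 0.09, adjusted p = 0.00669), and -0.77 (adjusted p = 0.0106) after the correction. Leaving out 1 library at a time, its log2 change stayed between -1.03 and -0.93 and its highest adjusted p was 0.0513, without sh-NC replicate 2.

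The ligase core itself did not pass. SYVN1, the ubiquitin ligase HRD1, stood at 4.77, 4.86 and 4.73 FPKM in sh-CFB, against 8.43, 6.76 and 5.73 in sh-NC, without overlap (-0.48, SE 0.15, adjusted p = 0.0992). SEL1L, its adaptor, overlapped, with 3.60, 5.76 and 6.74 FPKM against 10.02, 7.04 and 4.35 (-0.35, adjusted p = 0.523). EDEM1, a mannosidase-like protein that marks glycoproteins for disposal, overlapped as well, with 1.71, 3.89 and 4.10 against 5.95, 3.80 and 2.72 (-0.33, adjusted p = 0.590). The derlins form part of the exit channel. DERL2 had 2.56, 3.04 and 2.85 FPKM against 5.20, 4.11 and 3.96 without overlap (-0.56, adjusted p = 0.0667), and DERL1 had 5.87, 6.34 and 6.37 against 8.25, 6.90 and 7.84, also without overlap (-0.28, adjusted p = 0.183). SELENOS, a selenoprotein that links derlins to VCP, had 17.5, 17.7 and 15.4 against 21.0, 20.01 and 18.7 (-0.23, adjusted p = 0.199, and 0.04 when corrected for GC content and length). DERL3 lay below the filter, with 52, 42 and 54 reads in sh-CFB, against 47, 72 and 64 in sh-NC (two-sided exact permutation p of 1). SMARCB1 on the other strand overlaps 77% of its exon bases.

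Of the translocon genes, SEC61A1 and SEC61B fell. SEC61A1, the channel subunit (ENSG00000058262, chromosome 3 from 128051641 to 128071683, forward strand), stood at 45.2, 50.2 and 53.6 FPKM in sh-CFB, against 84.8, 77.6 and 69.3 in sh-NC. SEC61B, a small subunit (ENSG00000106803, chromosome 9 from 99222064 to 99230615, forward strand), stood at 53.8, 45.6 and 47.7 against 63.6, 65.9 and 68.8. In both the groups were apart, with the controls of SEC61A1 highest in replicate 1 and those of SEC61B in replicate 3. SEC61A1 changed by -0.63 (SE 0.11, adjusted p = 0.0203 with limma), and corrected for GC content and length by -0.47 (adjusted p = 0.0180). SEC61B changed by -0.43 (SE 0.10, adjusted p = 0.0405), and corrected it stood at -0.29 (adjusted p = 0.128). SSR1, a subunit of the TRAP complex beside the channel, had 5.17, 7.07 and 7.83 FPKM against 9.03, 7.40 and 6.09 and overlapped (-0.16, adjusted p = 0.655, and 0.04 with median-of-ratios factors).

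**Figure D3:**
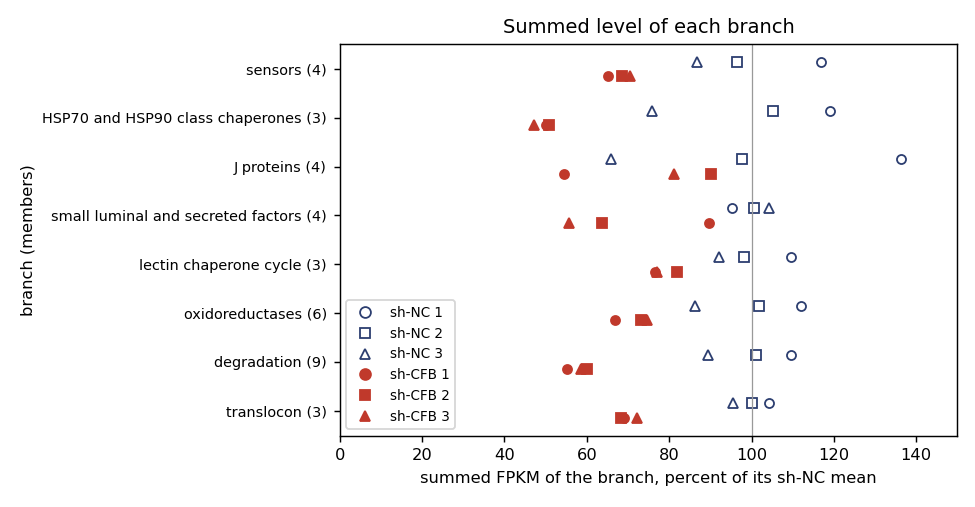
Summed FPKM of the members of each branch in each library, as a percentage of the branch's sh-NC mean, with open blue symbols for sh-NC and filled red symbols for sh-CFB and the number of members in brackets. The J proteins are the branch in which the groups overlap, and the HSP70 and HSP90 class chaperones (0.494 of the sh-NC mean) and the degradation branch (0.579) lie lowest.

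The replicate 1 libraries, at the ends of the GC axis, also marked many members. In 21 of the 33 tested members (63.6%) sh-NC replicate 1 was the highest control and sh-CFB replicate 1 the lowest sh-CFB library, against 49.6% of all tested genes. In 7 of the 33 tested members sh-CFB replicate 1 was instead the highest sh-CFB library, beside 2875 of all 12466 tested genes, a similar share. These 7 were HSPA5, HERPUD1, MANF and SEC61B, which fell, and SDF2L1, CRELD2 and P4HB, which did not pass. Over all tested genes the median log2 change went from -0.16 in the bin centred at 37.5% GC to -0.26 at 47.5% and from there to 0.12 at 62.5% (Spearman's rho over 12397 genes 0.31). Across the 33 members, most of which lie in the lower part of that range, rho was -0.39, with the changed members at a median GC content of 48.8% and those that did not pass at 41.4%. Both are descriptions, since the points share the same 6 libraries. The changed members were also the more abundant ones, with a median sh-NC level of 58.9 FPKM against 6.94 in those that did not pass. Across the members, the log2 change and the mean FPKM had a rho of -0.47, against 0.04 over all tested genes.

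**Figure D4:**
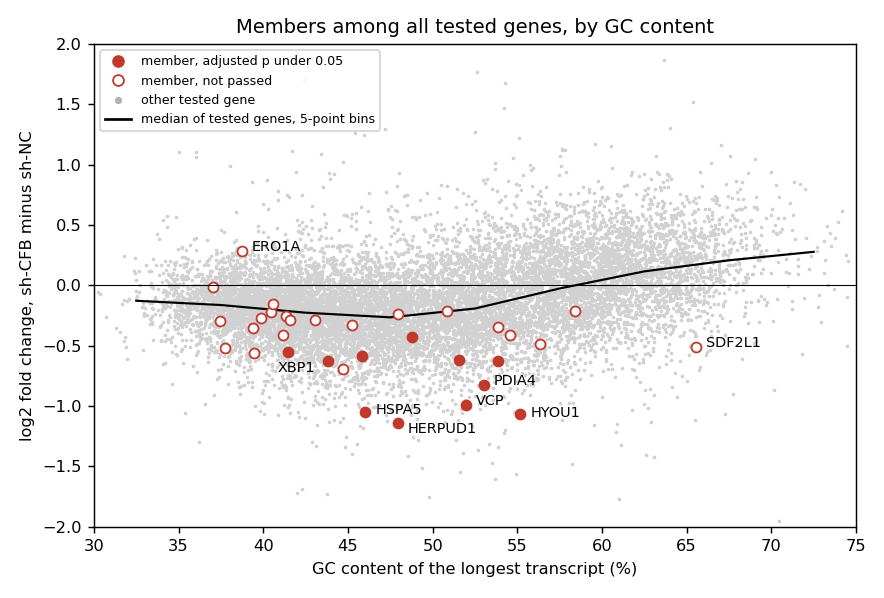
Log2 fold change, sh-CFB minus sh-NC, against the GC content of the longest transcript in percent; grey points are tested genes, the black line their median in bins of 5 points, and red circles the members, filled where the adjusted p was under 0.05. Genes beyond the axes (5 by fold change and 12 by GC content) are left out; HSPA5, HERPUD1, VCP, PDIA4 and HYOU1 lie well below the line at GC contents from 46.0% to 55.2%, and SDF2L1 lies below it at 65.5%.

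Members with and without the ER stress response elements can be set side by side. Of the 10 tested members with either form of the ER stress response element 4 fell (40%), and of the 21 with a window but without it 6 fell (28.6%), with median log2 changes of -0.46 and -0.35. Of all tested genes, with or without a window, 5.71% fell. HERPUD1, HYOU1, HSPA5 and XBP1 are the 4, while HSP90B1, CALR, CANX, CRELD2, SDF2L1 and ERO1B also hold the letters and did not pass. VCP, PDIA4, MANF, SEC61A1, PDIA6 and SEC61B fell and hold neither form in this window. Among tested genes outside the members, 13 held either form, of which 1 fell (7.69%) and 2 rose, with a median log2 change of -0.16. The 8982 genes without it had the same median, and 6.39% of them fell.

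The other genes of the pathway were taken from lists by function, 119 genes in all, of which 116 were tested. Of these 13 fell, 2 rose and 101 did not pass, with a median log2 change of -0.24. The share that fell, 11.2%, stands beside 5.71% of all tested genes. The median lay -0.09 from the all-gene median. Corrected for GC content and length it came to -0.05, with 9 genes lower (7.76%, against 6.58% of all genes) and 4 higher, and without both replicate 1 libraries it was also -0.05.

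Among the other degradation genes, 2 of 22 fell (9.09%, against 5.71% of all tested genes), UFD1 and NPLOC4, which encode cofactors of VCP. Further VCP cofactors of the list, picked with their values known, missed the threshold: UBXN6 stood at 0.56 with all sh-CFB libraries above the controls (adjusted p = 0.0550), FAF2 at -0.33 and UBXN4 at -0.31. UFD1 stood at 3.53, 3.86 and 3.96 FPKM in sh-CFB, against 6.77, 6.73 and 7.52 in sh-NC, with a log2 change of -0.81 (SE 0.12, adjusted p = 0.0135 with limma). NPLOC4, named after its values were seen, had 9.29, 10.4 and 11.7 against 18.7, 18.8 and 16.6 (-0.76, SE 0.12, adjusted p = 0.0148). The proteins of these genes form the dimer that hands ubiquitinated ER proteins to VCP. In both the groups were far apart, as they were in VCP. After the GC and length correction NPLOC4 kept its call (-0.53, adjusted p = 0.0155) and UFD1 did not (-0.55, adjusted p = 0.0633).

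**Figure D5:**
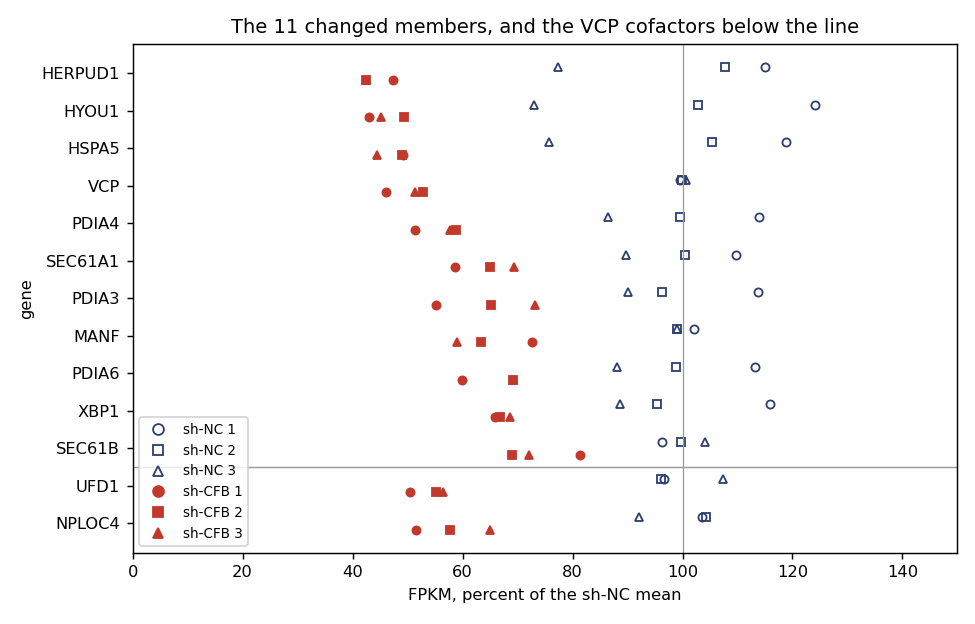
FPKM of the 11 members that fell, ordered by log2 change, and below the grey line of the VCP cofactors UFD1 and NPLOC4, as a percentage of each gene's sh-NC mean in each library; open blue symbols are sh-NC and filled red symbols sh-CFB. No red symbol overlaps a blue one in any row, and the blue symbols of VCP and MANF lie closest together.

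Some further genes of entry into the ER fell beside SEC61A1 and SEC61B. In the list of other translocon and signal peptidase genes 4 of 17 fell (23.5%, against 5.71% of all tested genes) and 0 rose. The remaining 13 did not pass, and of these SSR2 (0.22) and SSR4 (0.19) stood above 0. SRPRA, the receptor subunit that docks ribosomes carrying a signal sequence, stood at 23.7, 24.4 and 24.0 FPKM in sh-CFB, against 39.8, 37.0 and 35.6 in sh-NC (-0.63, SE 0.09, adjusted p = 0.0130). The other 3, named after their values were seen, were its partner SRPRB (-0.78), the signal peptidase subunit SPCS2 (-0.84) and the TRAP subunit SSR3 (-0.38). When corrected for GC content and length SSR3 stood at -0.16 (adjusted p = 0.607) with overlapping groups, and the other 3 kept the call. In N-glycan transfer and trimming, 2 of 14 fell (14.3%, against 5.71% of all tested genes) and 1 rose (7.14%, against 1.74%). RPN1, a subunit of the oligosaccharyltransferase, stood at 69.9 ± 5.51 FPKM in sh-CFB and 94.2 ± 5.71 in sh-NC (SD, n = 3), a limma log2 change of -0.43 (adjusted p = 0.0423), and RPN2, named after its values were seen, changed by -0.54. Both lost the call when corrected for GC content and length, at -0.19 (adjusted p = 0.119) and -0.34 (adjusted p = 0.0690), which left 0 of the list lower. PRKCSH, the regulatory subunit of glucosidase II, rose from 118, 122 and 122 FPKM to 159, 148 and 153 (0.34, SE 0.08, adjusted p = 0.0488).

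Other folding enzymes changed in both directions. In the list of further oxidoreductases and prolyl isomerases, 2 of 18 tested genes fell (11.1%, against 5.71% of all tested genes) and 1 rose (5.56%, against 1.74%). TMX2, a membrane thioredoxin-related protein, stood at 37.0, 44.4 and 45.3 FPKM in sh-CFB, against 62.0, 63.2 and 71.3 in sh-NC (-0.63, SE 0.11, adjusted p = 0.0208), and TXNDC12, named after its values were seen, changed by -0.66. Corrected for GC content and length, TXNDC12 lost the call (-0.39, adjusted p = 0.180) and its groups overlapped. FKBP10, a prolyl isomerase that works on collagen, rose from 64.2, 63.2 and 61.6 to 90.9, 82.3 and 91.1 FPKM (0.48, SE 0.09, adjusted p = 0.0212), with all sh-CFB libraries above all controls. None of the 10 tested genes among other ER chaperones and co-chaperones passed; DNAJB12, the most abundant of them, stood at -0.32 (adjusted p = 0.116). Corrected for GC content and length, SERPINH1, a collagen chaperone named after its values were seen, was called higher (0.42, adjusted p = 0.0268), from 0.32 (adjusted p = 0.145) uncorrected. In the COPII coat and cargo receptors, which carry folded proteins to the Golgi, 1 of 19 fell (5.26%, against 5.71% of all tested genes). This gene was SEC23B (-0.91, SE 0.20, adjusted p = 0.0399).

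In the remaining signalling genes of the response, 2 of 16 fell (12.5%, against 5.71% of all tested genes). RTCB, the ligase that joins the XBP1 exons after IRE1 has cut them, stood at 24.5, 25.5 and 28.99 FPKM in sh-CFB, against 39.9, 43.8 and 42.2 in sh-NC, well apart (-0.66, SE 0.10, adjusted p = 0.0135). TRIB3, a pseudokinase induced by ATF4 and CHOP and named after its values were seen, had 22.5, 20.3 and 20.1 against 58.4, 51.9 and 34.1 (-1.15, adjusted p = 0.0164). The PERK pathway transcription factors ATF4 and DDIT3 did not pass and were likewise picked with their values known. ATF4 stood at -0.16 (adjusted p = 0.437) and DDIT3, which encodes CHOP, at -0.91 (adjusted p = 0.0741). ATF4 stood at 0.04 with median-of-ratios factors. PPP1R15A, the phosphatase subunit that ends PERK signalling, was also picked with its values known and stood at 0.61 (adjusted p = 0.104).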

How the data were processed

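RNA of NCI-H1299 cells was sequenced from 3 sh-CFB and 3 sh-NC libraries, prepared with a strand-marking mRNA kit per the labels' protocols. The FPKM values were computed by the authors and deposited as 1 table. The submitters' processing notes name featureCounts 2.0.1, STAR 2.7.3a, Trimmomatic 0.39 and FastQC 0.11.9 with GRCh38; how strand was counted and which annotation was used is not given in the sources used here. The value of 1 read, library totals and gene lengths were recovered from the steps between FPKM values; 99.97% of genes gave whole numbers of reads, with a tolerance of 0.02.

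Values were taken as log2(FPKM + 0.5) for genes with a mean of at least 0.5 FPKM and fitted with limma 3.58.1 (R 4.3.3, intensity trend, no block), adjusted by Benjamini-Hochberg at 0.05. The fit was also run on simulated reads, drawn without the GC, length and scaling differences between libraries. That run therefore does not bear on how those differences move the calls. Symbols came from the supplied name table, coordinates, GC content and exon overlaps from GENCODE 29, promoters from RefSeq (33 of 36 members matched). The GC and length correction subtracts a loess surface (span 0.3) from each library. Summaries used scipy 1.17.1, pandas 2.3.3 and numpy 2.4.6 under Python 3.11.15, and figures matplotlib 3.10.9. Alternatives covered pseudocount, filter, scaling, model, replicate block and left-out libraries; voom with median-of-ratios factors was added after seeing the data. Members and lists were chosen with earlier results of these data known. All members are described. From each neighbouring list the rule named the changed gene with the lowest adjusted p in each direction or, with none, the most abundant. Every other neighbouring gene in the text was picked outside this rule, with its values known.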

Additional observations from a re-analysis of the deposited data

How the results depend on the processing

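The 11 members, 15 neighbouring ER genes and 929 genes in all that changed became 4, 7 and 324 with no filter on low values, 7, 8 and 531 without an intensity trend, 0, 0 and 133 with median-of-ratios factors (26 neighbouring genes at an unadjusted p under 0.05), and 3, 4 and 316 with voom and those factors. Leaving out 1 library at a time gave 0 to 11 members, 0 to 12 neighbouring genes and 20 to 544 genes in all; sh-CFB replicate 2 (1, 0 and 41) and sh-NC replicate 2 (0, 0 and 20) moved the counts most. The split of all genes into higher and lower was 217 and 712, 533 and 816 with the GC and length correction and 465 and 636 with quantile normalization. Same-numbered libraries had correlations of deviations of -0.54, 0.07 and -0.45. The deviations are from means of 3 libraries that also differ along the GC axis. These values therefore cannot show whether same-numbered libraries were handled together. With the replicate block limma called 0 members, 0 neighbouring genes and 0 genes in all, and 0, 0 and 0 with the GC and length correction as well. In each, 14 members had an unadjusted p under 0.05, all lower with the block alone and 13 lower with the correction as well. The share of all genes at that level is not given here. Directions turned in members that did not pass. Without both replicate 1 libraries the log2 changes were 0.031 in ERN1, 0.32 in DNAJB9, 0.16 in DNAJC3, 0.11 in DNAJC10, 0.13 in CANX, 0.16 in ERO1B, 0.15 in SEL1L, 0.27 in EDEM1 and 0.14 in SSR1. With the GC and length correction, with or without the replicate block, they were 0.0054 in DNAJB9, 0.16 in ERO1B, 0.044 in SELENOS and 0.038 in SSR1. ERO1B and SSR1 stood at 0.11 and 0.036 with median-of-ratios factors, 0.10 and 0.011 with quantile normalization and 0.18 and 0.038 with voom and median-of-ratios factors, a setting chosen after seeing the data. Leaving out 1 library, the ranges were -0.49 to 0.067 in DNAJB9, -0.053 to 0.59 in ERO1A, -0.11 to 0.083 in ERO1B, -0.57 to 0.0086 in EDEM1 and -0.29 to 0.0046 in SSR1. The cause of these changes was not tested. The 11 members that fell stayed below 0 under every alternative run. They were called lower from these same libraries, so the constant sign is no separate evidence, and their calls were lost in several settings.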
